A study of Mus musculus with 10 samples.

Results

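The transcripts of 54 genes of mitosis and of the G2/M transition were followed in B16-F10-OVA and B16-F10 mouse melanoma cells with and without interferon gamma (IFN-γ). The genes were picked by name for their roles in dividing cells. The rule holds no measured value, but the list was drawn up with earlier results of these data known. All 54 were found among the 77175 entries of the count table, each as 1 row, and all 54 were among the 15526 genes with enough counts to be tested. They were arranged by role into 9 groups, from the cyclins that start mitosis to the proteins that cut the daughter cells apart.

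B16-F10 is a melanoma line grown in culture and is called WT here. B16-F10-OVA, called OVA here, is the same line with the vector pLV[Exp]-Neo-EF1A>{ovalbumin}, a lentiviral construct in which the EF1A promoter drives ovalbumin, a model antigen. The groups were OVA cells given IFN-γ (50 ng/ml, 24 h; n = 3), OVA cells left untreated (n = 2), WT cells given IFN-γ at that dose and time (n = 3) and WT cells left untreated (n = 2). Whether OVA is 1 clone or a mixed population is not given in the sources used here, and neither is whether replicates were separate cultures, so p-values measure the spread between these libraries, which may be technical. The question behind the series was whether IFN-γ changes expression differently in OVA and in WT cells.

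Before a cell divides, it builds up the mitotic cyclins and their kinase, and then the motors, kinetochore proteins and condensins that pack, move and separate the chromosomes. Most of these transcripts are low in G1, climb through S phase and peak in G2 and mitosis, so that their level in a culture follows the share of cells close to division. In mammals the MuvB complex, acting with B-Myb and FOXM1, switches these genes on late in the cycle, and as the DREAM complex it keeps them off in resting cells. MuvB is known to bind a short promoter element, the cell cycle genes homology region (CHR), and many of these promoters also carry CCAAT boxes, which are bound by NF-Y.

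The promoter sequences of Hmmr, Plk1 and Racgap1 are shown because these genes passed the test for different IFN-γ responses in the 2 lines and carry both elements. Their calls were lost under some other settings of the analysis (values follow). Both elements also stood together in 29 of the 45 genes with a promoter window. A link between the elements and the responses was not tested. Each sequence holds 300 bases, 250 before and 50 after the RefSeq start of the gene on GRCm38.p6, read 5′ to 3′ on the gene's strand. The capitals mark TTTGAA, the CHR word, and CCAAT or its reverse complement ATTGG. The windows are chr11:40733388-40733687 (minus strand) for Hmmr, chr7:122159185-122159484 (plus strand) for Plk1 and chr15:99651607-99651906 (minus strand) for Racgap1.
Hmmr: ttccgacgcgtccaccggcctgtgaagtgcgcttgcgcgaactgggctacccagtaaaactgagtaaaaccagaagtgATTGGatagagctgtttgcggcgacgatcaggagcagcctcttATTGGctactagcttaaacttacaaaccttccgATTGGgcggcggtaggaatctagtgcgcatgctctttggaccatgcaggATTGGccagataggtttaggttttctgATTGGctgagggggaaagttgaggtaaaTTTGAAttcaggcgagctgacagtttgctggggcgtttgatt
Plk1: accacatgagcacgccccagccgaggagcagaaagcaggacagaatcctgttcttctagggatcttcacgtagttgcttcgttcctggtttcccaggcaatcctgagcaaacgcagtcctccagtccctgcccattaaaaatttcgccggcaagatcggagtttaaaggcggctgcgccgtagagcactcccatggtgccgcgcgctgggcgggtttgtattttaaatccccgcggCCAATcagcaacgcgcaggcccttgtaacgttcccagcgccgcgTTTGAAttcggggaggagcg
Racgap1: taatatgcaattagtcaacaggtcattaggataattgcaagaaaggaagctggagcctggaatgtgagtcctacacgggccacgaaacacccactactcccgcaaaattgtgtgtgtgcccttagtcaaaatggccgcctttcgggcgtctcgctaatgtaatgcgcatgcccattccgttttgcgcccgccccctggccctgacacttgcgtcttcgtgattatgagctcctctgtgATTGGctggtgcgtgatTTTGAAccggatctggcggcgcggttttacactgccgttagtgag

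Counting the first transcribed base as 1 and the base before it as −1, the CHR word began at base 9 in Hmmr, at base 31 in Plk1 and at base 6 in Racgap1. The CCAAT box next to it began at base −14 in Plk1 and at base −12 in Racgap1, while Hmmr had 5 CCAAT boxes, at −172, −129, −96, −47 and −20. RefSeq windows were matched for 45 of the 54 genes. The unmatched genes were Tpx2, Aurkb, Smc4, Cdca2, Cdc25c, Spc24, Kif20a, Dlgap5 and Ccna2.

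The CHR word TTTGAA, searched on both strands, stood in the window of 36 of the 45 genes (80.0%), against 20.2% of the 27025 genes with a window. CCAAT stood in 33 of the 45 (73.3%), against 41.1% of all genes, and both words stood in 1 window for 29 (64.4%), against 7.97%. The E2F words TTTCCCGC and TTTGGCGC, which mark many promoters of the G1/S transition, stood in 3 of the 45 (6.67%), against 1.80%. Of 30 matched G1/S and DNA replication genes, 5 (16.7%) held the CHR word, 19 (63.3%) held CCAAT and 10 (33.3%) held an E2F word. Of 99 matched other G2 and mitosis genes, 35 (35.4%) held the CHR word, 58 (58.6%) held CCAAT, 24 (24.2%) held both and 12 (12.1%) held an E2F word. A match says that the letters are present, not that the site is used. The CHR and CCAAT words share no full match, although in Cdca8 a CHR match and a CCAAT match have a base in common.

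**Figure D1:**
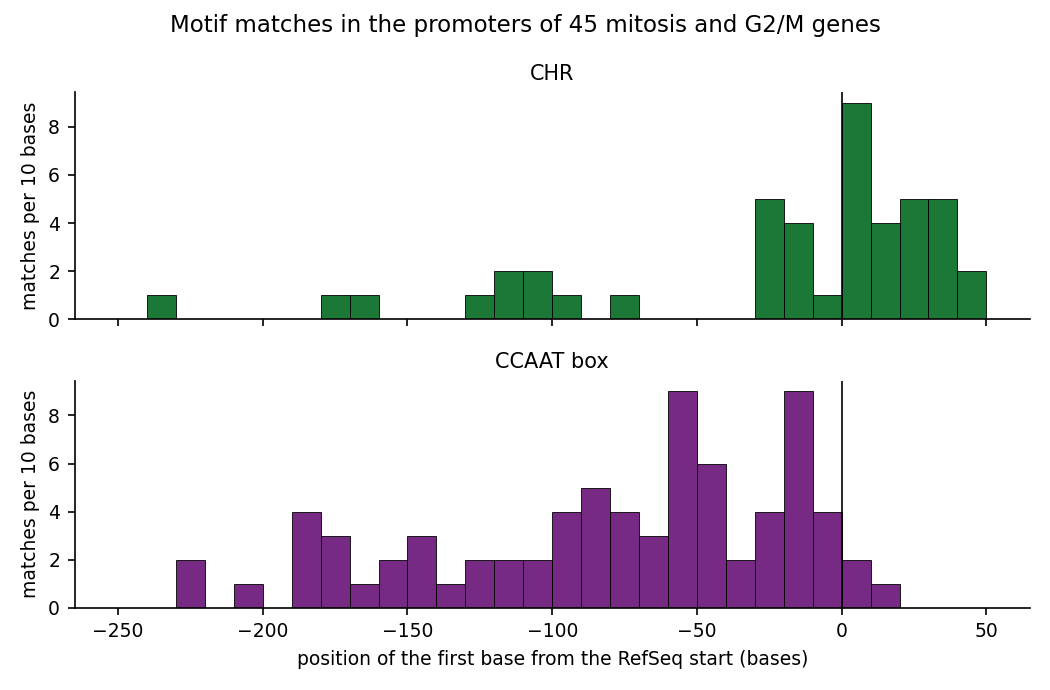
Number of matches in bins of 10 bases (y axis) by the distance of their first base from the RefSeq start (x axis, bases, line at the start), for the CHR word above and the CCAAT box below, in the promoters of 45 mitosis and G2/M genes. A site in several windows of a gene is counted once, at its nearest start. Of 45 CHR sites, 35 began between −50 and 50, and of 76 CCAAT sites, 60 began between −150 and −1.

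The search covered only 250 bases before and 50 after the start, and positions were counted for these genes alone. Cep55, Ect2 and Prc1 had several overlapping windows, so each site was counted once by its place in the genome, at the start nearest to it. Of the 45 CHR sites, 35, in 32 genes, began between −50 and 50, with a median position of 4. The CCAAT sites lay further upstream, with a median position of −66, and 60 of 76, in 31 genes, began between −150 and −1.

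Depth was even, at 17728722 to 19642533 counts per library, and the WT IFN-γ libraries were the deepest, at 18802348 to 19642533 counts. Levels are given as CPM, each gene's share of the library's counts scaled to a common total, after TMM scaling, and fold changes on the log2 scale. Melanocyte genes summed to 23096 to 24500 CPM in every library. The leukocyte marker Ptprc was at 0 in all 10, and the summed markers of T cells, macrophages, fibroblasts, epithelial and endothelial cells were at most 4.43 CPM, so the melanocyte markers of the labelled cell type were present in every library. The treatment was visible in the interferon-induced transcription factor Irf1, with a log2 fold change of 5.99 (SE 0.055, adjusted p = 8.35e-22) in OVA and 6.04 (SE 0.0549, adjusted p = 8.01e-22) in WT.

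The 54 genes spanned mean levels of 20.8 CPM to 789.2 CPM over all libraries. Per kilobase of exon, Top2a, the topoisomerase that untangles sister chromatids, stood highest at 87.6 CPM per kb, ahead of Plk1 at 51.0, Ccna2 at 50.4, Ncapd2 at 50.3 and Mki67 at 50.1 CPM per kb. The phosphatase gene Cdc25c stood lowest at 4.23 CPM per kb. By the GENCODE M21 annotation, 13 of the 54 have exons that overlap a gene on the opposite strand, among them Ccna2, Plk1, Cdc20, Kif20a, Kif4, Ncapg, Nusap1, Prc1, Tacc3 and Ube2c. The kit is not stated to be stranded, so reads within these overlaps, of 53 to 1271 bases, cannot be told apart. The partner genes with counts given ran from 0 over all libraries, for Ckap2l, to 10432, for Cdc20. The partner of Plk1 had 54 and that of Ube2c 1. Ccnb1, Ccnb2 and Kif4 have pseudogenes in the table, and how reads with several matches were counted is not given in the sources used here.

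In OVA cells IFN-γ lowered most of the mitotic genes. Of the 54, 45 fell, 0 rose and 9 were not called at an adjusted p under 0.05, while 22.9% of all tested genes fell and 25.9% rose. At an unadjusted p under 0.05 1 of the 54 was higher, against 28.6% of all genes, and DESeq2 and limma-voom also called 0 higher. The median log2 fold change was −0.31 over the 54 and 0.0018 over all tested genes. For 25 of the 54 the decrease was called and at least 0.32 log2 units, against 13.0% of all genes.

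In WT cells IFN-γ lowered 30 of the 54 genes and raised 4. The other 20 were not called, while 19.7% of all tested genes fell and 24.5% rose. The median log2 fold change was −0.13 over the 54 and 0.011 over all tested genes. For 3 genes, Mki67, Ncapd2 and Aspm, the decrease was called and at least 0.3219 log2 units, against 10.8% of all genes. The split in WT changed with the scaling. With upper quartile factors 38 of the 54 fell and 1 rose, and over all genes 2763 rose and 4039 fell, against 3803 and 3055 with TMM factors. With total counts alone 32 of the 54 fell and 3 rose, and over all genes 3306 rose and 3448 fell. Of the 34 WT calls, 22 were kept under every alternative at the 0.05 threshold. Those lost under at least 1 were the decreases of Ccnb2, Cdca3, Tpx2, Birc5, Cdca8, Nuf2, Spc24, Spc25 and Ect2 and the increases of Cenpe, Hmmr and Smc4.

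The summed level of the 54 genes was 5753, 5769 and 5772 CPM in OVA IFN-γ libraries, against 7263 and 7220 CPM in OVA untreated libraries, a mean difference of −20.4%. In WT IFN-γ libraries it was 6351, 6273 and 6171 CPM, against 6996 and 7048 CPM in WT untreated libraries, a mean difference of −10.8%. In neither line did the treated libraries overlap the untreated ones. In bulk RNA, fewer cells in G2 and mitosis and less of these transcripts per cell cannot be told apart.

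**Figure D2:**
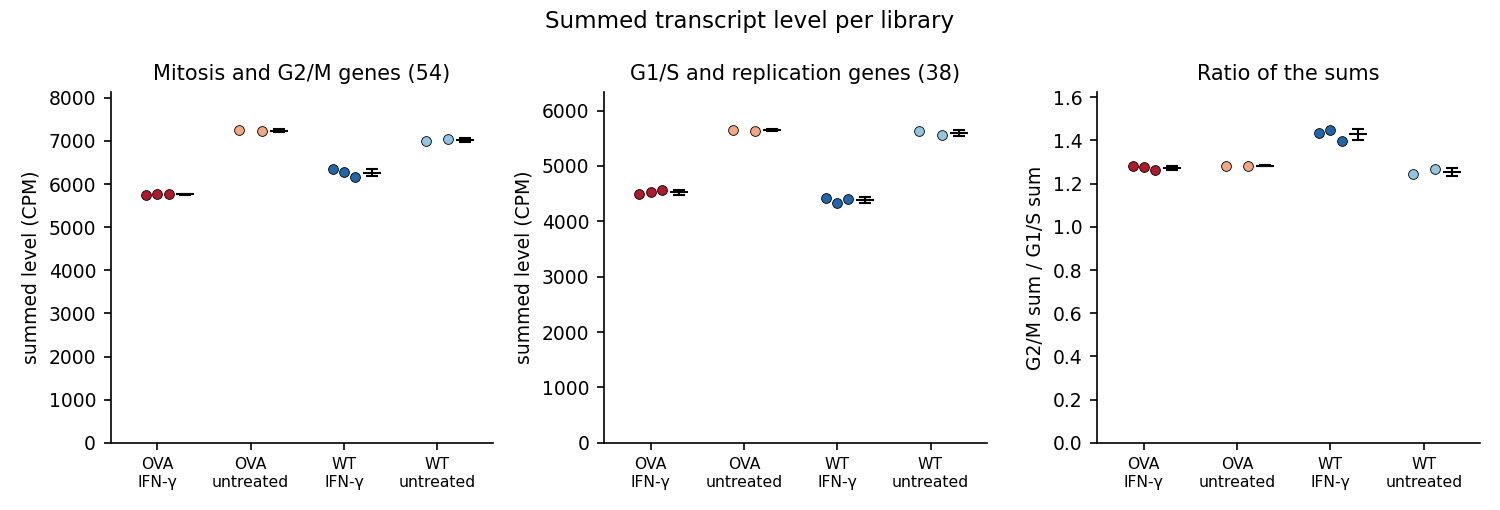
Summed level per library (y axes, CPM) of the 54 mitosis and G2/M genes and of 38 G1/S and replication genes, and the ratio of these sums, by group; points are libraries and bars give the mean ± SD. The 54 genes summed to 5753 to 5772 CPM in OVA IFN-γ libraries and to 6171 to 6351 CPM in WT IFN-γ libraries, while the ratio was highest in the WT IFN-γ libraries, at 1.40 to 1.45.

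Of 6 genes of the cyclins and of CDK1 control, 5 fell in OVA and 5 fell in WT, with median log2 fold changes of −0.29 and −0.15. Ccna2, cyclin A2, which drives S phase and entry into mitosis, had 179, 184 and 175 CPM in OVA IFN-γ libraries against 244 and 244 CPM in OVA untreated libraries, and 195, 189 and 195 CPM in WT IFN-γ libraries against 226 and 226 CPM in WT untreated libraries. The treated libraries lay below the untreated ones in both lines, and lowest in OVA.

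Ccnb1 encodes cyclin B1, the partner of CDK1 in mitosis. It had 137, 142 and 131 CPM in OVA IFN-γ libraries against 174 and 169 CPM in OVA untreated libraries, and 134, 128 and 135 CPM in WT IFN-γ libraries against 148 and 148 CPM in WT untreated libraries. Its log2 fold change was −0.32 (SE 0.0373, adjusted p = 1.74e-06) in OVA and −0.16 (SE 0.0379, adjusted p = 0.00201) in WT, and the OVA untreated libraries were the highest of all. Cdk1, the kinase itself, fell in both lines, with log2 fold changes of −0.25 (adjusted p = 1.91e-05) in OVA and −0.20 (adjusted p = 1.68e-04) in WT and a difference of −0.04 (adjusted p = 0.837). Ccnb2 (−0.30 in OVA, −0.12 in WT) and Cdca3, a gene of mitotic entry (−0.28 in OVA, −0.13 in WT), fell in both. The WT call of Ccnb2 was lost with DESeq2, with no count filter and without either WT untreated library (adjusted p of 0.0648 to 0.111), and that of Cdca3 without WT untreated replicate 1 or WT IFN-γ replicate 2 (0.0603 and 0.191). Cdc25c, the phosphatase that activates CDK1, was not called in either, at −0.09 (adjusted p = 0.360) in OVA and −0.13 (adjusted p = 0.186) in WT.

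Among the mitotic kinases, here with the Aurora A activator Tpx2, 4 of 5 fell in OVA and 2 of 5 in WT. Plk1, the Polo-like kinase that acts at centrosomes, kinetochores and the midbody, had 105, 104 and 109.9 CPM in OVA IFN-γ libraries against 128 and 123 CPM in OVA untreated libraries, and 113, 111 and 110.0 CPM in WT IFN-γ libraries against 112 and 106 CPM in WT untreated libraries. The OVA untreated libraries were the high ones, and the WT groups overlapped. Its log2 fold change was −0.24 (SE 0.038, adjusted p = 5.34e-05) in OVA and 0.03 (SE 0.0384, adjusted p = 0.540) in WT. Aurka, the spindle pole kinase Aurora A, was −0.24 (adjusted p = 1.88e-04) in OVA and −0.03 (adjusted p = 0.669) in WT.

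Bub1, a kinase of the spindle checkpoint, fell in both lines (−0.37 in OVA, −0.21 in WT), as did Tpx2 (−0.29 in OVA, −0.12 in WT). The WT call of Tpx2 was lost without either WT untreated library (adjusted p of 0.0564 and 0.134). Ttk, the checkpoint kinase also called MPS1, was called in neither, at −0.10 (adjusted p = 0.248) in OVA and −0.06 (adjusted p = 0.484) in WT. Its level was 28.7 to 35.0 CPM over all libraries.

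The chromosomal passenger complex corrects wrong attachments of microtubules to chromosomes. Its kinase Aurkb was −0.36 (adjusted p = 8.88e-07) in OVA and −0.27 (adjusted p = 3.45e-05) in WT. The subunits Birc5, survivin (−0.34 in OVA, −0.17 in WT), and Cdca8, borealin (−0.24 in OVA, −0.16 in WT), also fell in both. Their WT calls were lost without WT untreated replicate 2 for Birc5 (adjusted p = 0.0670) and without WT untreated replicate 1 for Cdca8 (adjusted p = 0.0842). Sgo1, shugoshin, which shields centromeric cohesin and was grouped with them, was −0.23 (adjusted p = 3.93e-04) in OVA and −0.05 (adjusted p = 0.350) in WT.

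Of 10 kinetochore and spindle checkpoint genes, 8 fell and 0 rose in OVA, and 6 fell and 1 rose in WT. Cenpa, the histone H3 variant that marks the centromere, had 56.2, 53.7 and 58.7 CPM in OVA IFN-γ libraries against 81.8 and 82.8 CPM in OVA untreated libraries, and 67.7, 72.3 and 63.9 CPM in WT IFN-γ libraries against 85.6 and 79.0 CPM in WT untreated libraries. Its log2 fold changes were −0.55 (SE 0.0545, adjusted p = 2.51e-07) in OVA and −0.28 (SE 0.0532, adjusted p = 4.19e-04) in WT, the largest decreases of this group.

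Cenpe, the kinetochore motor that carries chromosomes to the metaphase plate, had 134, 120.1 and 118 CPM in OVA IFN-γ libraries against 127 and 129 CPM in OVA untreated libraries, and 136, 141 and 127 CPM in WT IFN-γ libraries against 115 and 120.3 CPM in WT untreated libraries. All 3 treated WT libraries were above the untreated ones, with a log2 fold change of 0.19 (SE 0.0518, adjusted p = 0.00596), while the OVA groups overlapped (−0.05 (adjusted p = 0.463)). The WT call was lost with upper quartile factors (adjusted p = 0.0790) and without WT untreated replicate 1 (adjusted p = 0.0717). Cenpf, a large protein of the outer kinetochore, was −0.37 (adjusted p = 1.24e-05) in OVA and −0.08 (adjusted p = 0.221) in WT, and Knl1, the scaffold of the checkpoint, was −0.40 (adjusted p = 1.01e-05) in OVA and −0.12 (adjusted p = 0.0840) in WT.

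All 4 subunits of the NDC80 complex, which grips the microtubule ends, were measured. The subunits Nuf2 (−0.37 in OVA, −0.18 in WT), Spc24 (−0.28 in OVA, −0.18 in WT) and Spc25 (−0.21 in OVA, −0.15 in WT) fell in both lines. The WT call of Spc24 was lost under 5 of 19 alternatives (adjusted p of 0.0542 to 0.165) and that of Spc25 under 4 (0.0680 to 0.328), among them DESeq2, no count filter and the loss of WT untreated replicate 2 or WT IFN-γ replicate 2 for both. Without WT untreated replicate 2, Nuf2 was not called in WT either (adjusted p = 0.0807). Ndc80 itself was called in neither, at −0.03 (adjusted p = 0.643) in OVA and 0.06 (adjusted p = 0.408) in WT, with 49.2, 49.4 and 51.0 CPM in OVA IFN-γ libraries against 50.0 and 51.9 CPM in OVA untreated libraries, and 53.5, 50.8 and 47.7 CPM in WT IFN-γ libraries against 49.2 and 48.3 CPM in WT untreated libraries. The checkpoint proteins Bub1b (−0.42 in OVA, −0.26 in WT) and Mad2l1 (−0.28 in OVA, −0.14 in WT) fell in both.

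Anaphase begins when the anaphase-promoting complex and its activator Cdc20 mark securin and cyclin B for destruction. All 3 genes of anaphase control fell in OVA and 2 of them fell in WT. Ube2c, the ubiquitin-conjugating enzyme of that complex, was −0.42 (adjusted p = 9.58e-08) in OVA and −0.20 (adjusted p = 3.05e-04) in WT, and Espl1, separase, which cuts cohesin, was −0.42 (adjusted p = 3.37e-07) in OVA and −0.32 (adjusted p = 8.17e-06) in WT. Cdc20 had 63.1, 67.0 and 70.0 CPM in OVA IFN-γ libraries against 82.9 and 87.4 CPM in OVA untreated libraries, and 70.4, 67.8 and 68.2 CPM in WT IFN-γ libraries against 75.1 and 70.1 CPM in WT untreated libraries. Its log2 fold change was −0.35 (SE 0.0483, adjusted p = 1.18e-05) in OVA and −0.08 (SE 0.0491, adjusted p = 0.215) in WT, where the groups overlapped.

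Of 8 kinesins, the motors that build and stretch the spindle, 7 fell in OVA, and 4 fell and 1 rose in WT. Kif11 (Eg5), which pushes the spindle poles apart, had 127, 129.7 and 128 CPM in OVA IFN-γ libraries against 173 and 181 CPM in OVA untreated libraries, and 141, 146 and 139 CPM in WT IFN-γ libraries against 161 and 173 CPM in WT untreated libraries, a log2 fold change of −0.46 (SE 0.0377, adjusted p = 2.32e-08) in OVA and −0.23 (SE 0.0376, adjusted p = 8.64e-05) in WT. Kif15, which works beside it, was −0.46 (adjusted p = 1.68e-07) in OVA and −0.27 (adjusted p = 7.56e-05) in WT, and Kif23, a motor of the central spindle, was −0.43 (adjusted p = 8.79e-08) in OVA and −0.23 (adjusted p = 1.32e-04) in WT. Kif18b, which shortens astral microtubules, also fell in both (−0.37 in OVA, −0.19 in WT).

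The motors Kif20a, Kif2c and Kif4 fell in OVA and were not called in WT. Kif20a, which moves the passenger complex to the midzone, was −0.23 (adjusted p = 1.99e-04) in OVA and 0.02 (adjusted p = 0.751) in WT. Kif2c, a microtubule depolymerase, was −0.19 in OVA and −0.12 in WT, and its OVA call was lost without OVA untreated replicate 1 (adjusted p = 0.0622). Kif4, a chromosome-bound motor, was −0.32 in OVA and −0.09 in WT. Kif20b, a kinesin of late cytokinesis, had 86.3, 81.8 and 78.7 CPM in OVA IFN-γ libraries against 81.6 and 81.0 CPM in OVA untreated libraries, and 81.4, 83.4 and 84.2 CPM in WT IFN-γ libraries against 68.5 and 73.6 CPM in WT untreated libraries. It rose in WT, with 0.23 (SE 0.0459, adjusted p = 6.91e-04), where the untreated libraries were the low ones, and stood at 0.02 (adjusted p = 0.789) in OVA, where the groups overlapped.

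Of 8 spindle microtubule proteins, 7 fell in OVA, and 2 fell and 1 rose in WT. Aspm, a spindle pole protein, fell the most, with 83.8, 86.7 and 87.7 CPM in OVA IFN-γ libraries against 142 and 134 CPM in OVA untreated libraries, and 111, 106 and 97.7 CPM in WT IFN-γ libraries against 133 and 143 CPM in WT untreated libraries. Its log2 fold change was −0.68 (SE 0.0493, adjusted p = 4.94e-09) in OVA and −0.40 (SE 0.0484, adjusted p = 3.53e-06) in WT. Prc1, which bundles the microtubules of the midzone, also fell in both lines (−0.34 in OVA, −0.19 in WT).

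Hmmr, the hyaluronan-mediated motility receptor, which works at the mitotic spindle, moved in opposite directions. It had 91.2, 88.4 and 93.5 CPM in OVA IFN-γ libraries against 100.5 and 103 CPM in OVA untreated libraries, and 101, 96.9 and 98.8 CPM in WT IFN-γ libraries against 91.1 and 90.1 CPM in WT untreated libraries. The treated libraries lay below the untreated ones in OVA and above them in WT, with log2 fold changes of −0.16 (SE 0.0373, adjusted p = 0.00190) and, in WT, 0.12 (SE 0.0375, adjusted p = 0.0128). The WT call was lost with DESeq2, with total counts or upper quartile factors and without WT untreated replicate 2 or WT IFN-γ replicate 1, at adjusted p of 0.0522 to 0.274, with the log2 fold change above 0 throughout.

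Nusap1, a microtubule stabiliser of the spindle, Ckap2 and Ckap2l, both microtubule-associated, and Tacc3, which links kinetochore fibres, fell in OVA, with log2 fold changes of −0.35 (Ckap2) to −0.19 (Ckap2l), and were not called in WT, at −0.10 (Ckap2) to 0.02 (Nusap1). Dlgap5, which stabilises kinetochore fibres, was called in neither, at −0.08 (adjusted p = 0.178) in OVA and 0.06 (adjusted p = 0.325) in WT.

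Of 6 genes of chromosome structure, 4 fell in OVA, and 3 fell and 1 rose in WT. Mki67 encodes Ki-67, a coat of mitotic chromosomes and a common marker of cycling cells. It had 367, 359 and 342 CPM in OVA IFN-γ libraries against 660.5 and 654 CPM in OVA untreated libraries, and 440.1, 426 and 392 CPM in WT IFN-γ libraries against 679 and 719 CPM in WT untreated libraries. Its log2 fold change was −0.88 (SE 0.0425, adjusted p = 1.65e-11) in OVA and −0.74 (SE 0.0422, adjusted p = 2.03e-10) in WT, the largest decrease of the 54 genes in each line.

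Condensin folds mitotic chromosomes. Its subunit Ncapd2 had 255, 248 and 256 CPM in OVA IFN-γ libraries against 391 and 388 CPM in OVA untreated libraries, and 285, 284 and 272 CPM in WT IFN-γ libraries against 381 and 389.6 CPM in WT untreated libraries. It fell in both lines, with −0.62 (SE 0.0303, adjusted p = 1.97e-11) in OVA and −0.46 (SE 0.0302, adjusted p = 1.44e-09) in WT. Ncapg, another subunit of the same complex, had 107, 107 and 109 CPM in OVA IFN-γ libraries against 106 and 108 CPM in OVA untreated libraries, and 109, 108 and 115 CPM in WT IFN-γ libraries against 109 and 104 CPM in WT untreated libraries, and was called in neither line, at 0.00 (adjusted p = 0.954) in OVA and 0.06 (adjusted p = 0.255) in WT. The ATPase subunit Smc4 had 249, 236 and 244 CPM in OVA IFN-γ libraries against 240.0 and 215 CPM in OVA untreated libraries, and 241, 252 and 241 CPM in WT IFN-γ libraries against 220.4 and 216 CPM in WT untreated libraries. It rose in WT, with 0.17 (SE 0.0416, adjusted p = 0.00358), a call lost with upper quartile factors (adjusted p = 0.0797), and was 0.09 (adjusted p = 0.0726) in OVA.

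Top2a had 737, 743 and 739.9 CPM in OVA IFN-γ libraries against 784 and 779.6 CPM in OVA untreated libraries, and 863, 842 and 808 CPM in WT IFN-γ libraries against 791 and 803 CPM in WT untreated libraries. The WT IFN-γ libraries were the highest of all and the OVA IFN-γ libraries the lowest, with log2 fold changes of −0.08 (SE 0.0292, adjusted p = 0.0337) in OVA and 0.07 (SE 0.0292, adjusted p = 0.0564) in WT. The OVA call was lost under 6 alternatives, among them no count filter, a replicate block and the loss of either untreated library of either line, at adjusted p of 0.0511 to 0.167. Cdca2, which brings a phosphatase to chromosomes at anaphase, fell in both lines (−0.41 in OVA, −0.31 in WT).

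Of 4 cytokinesis genes, 3 fell in each line. Racgap1, a subunit of centralspindlin at the midzone, had 149.8, 155 and 155 CPM in OVA IFN-γ libraries against 213 and 211 CPM in OVA untreated libraries, and 179, 173 and 173 CPM in WT IFN-γ libraries against 207 and 195 CPM in WT untreated libraries, with log2 fold changes of −0.47 (SE 0.0336, adjusted p = 4.28e-09) in OVA and −0.20 (SE 0.0335, adjusted p = 9.90e-05) in WT. Anln, anillin of the contractile ring (−0.43 in OVA, −0.27 in WT), and Ect2, the activator of RhoA at the furrow (−0.34 in OVA, −0.15 in WT), fell as well. With WT untreated replicate 2 left out, Ect2 was not called in WT (adjusted p = 0.0818). Cep55, which recruits the machinery of abscission, was called in neither, at 0.05 (adjusted p = 0.431) in OVA and 0.07 (adjusted p = 0.236) in WT.

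**Figure D3:**
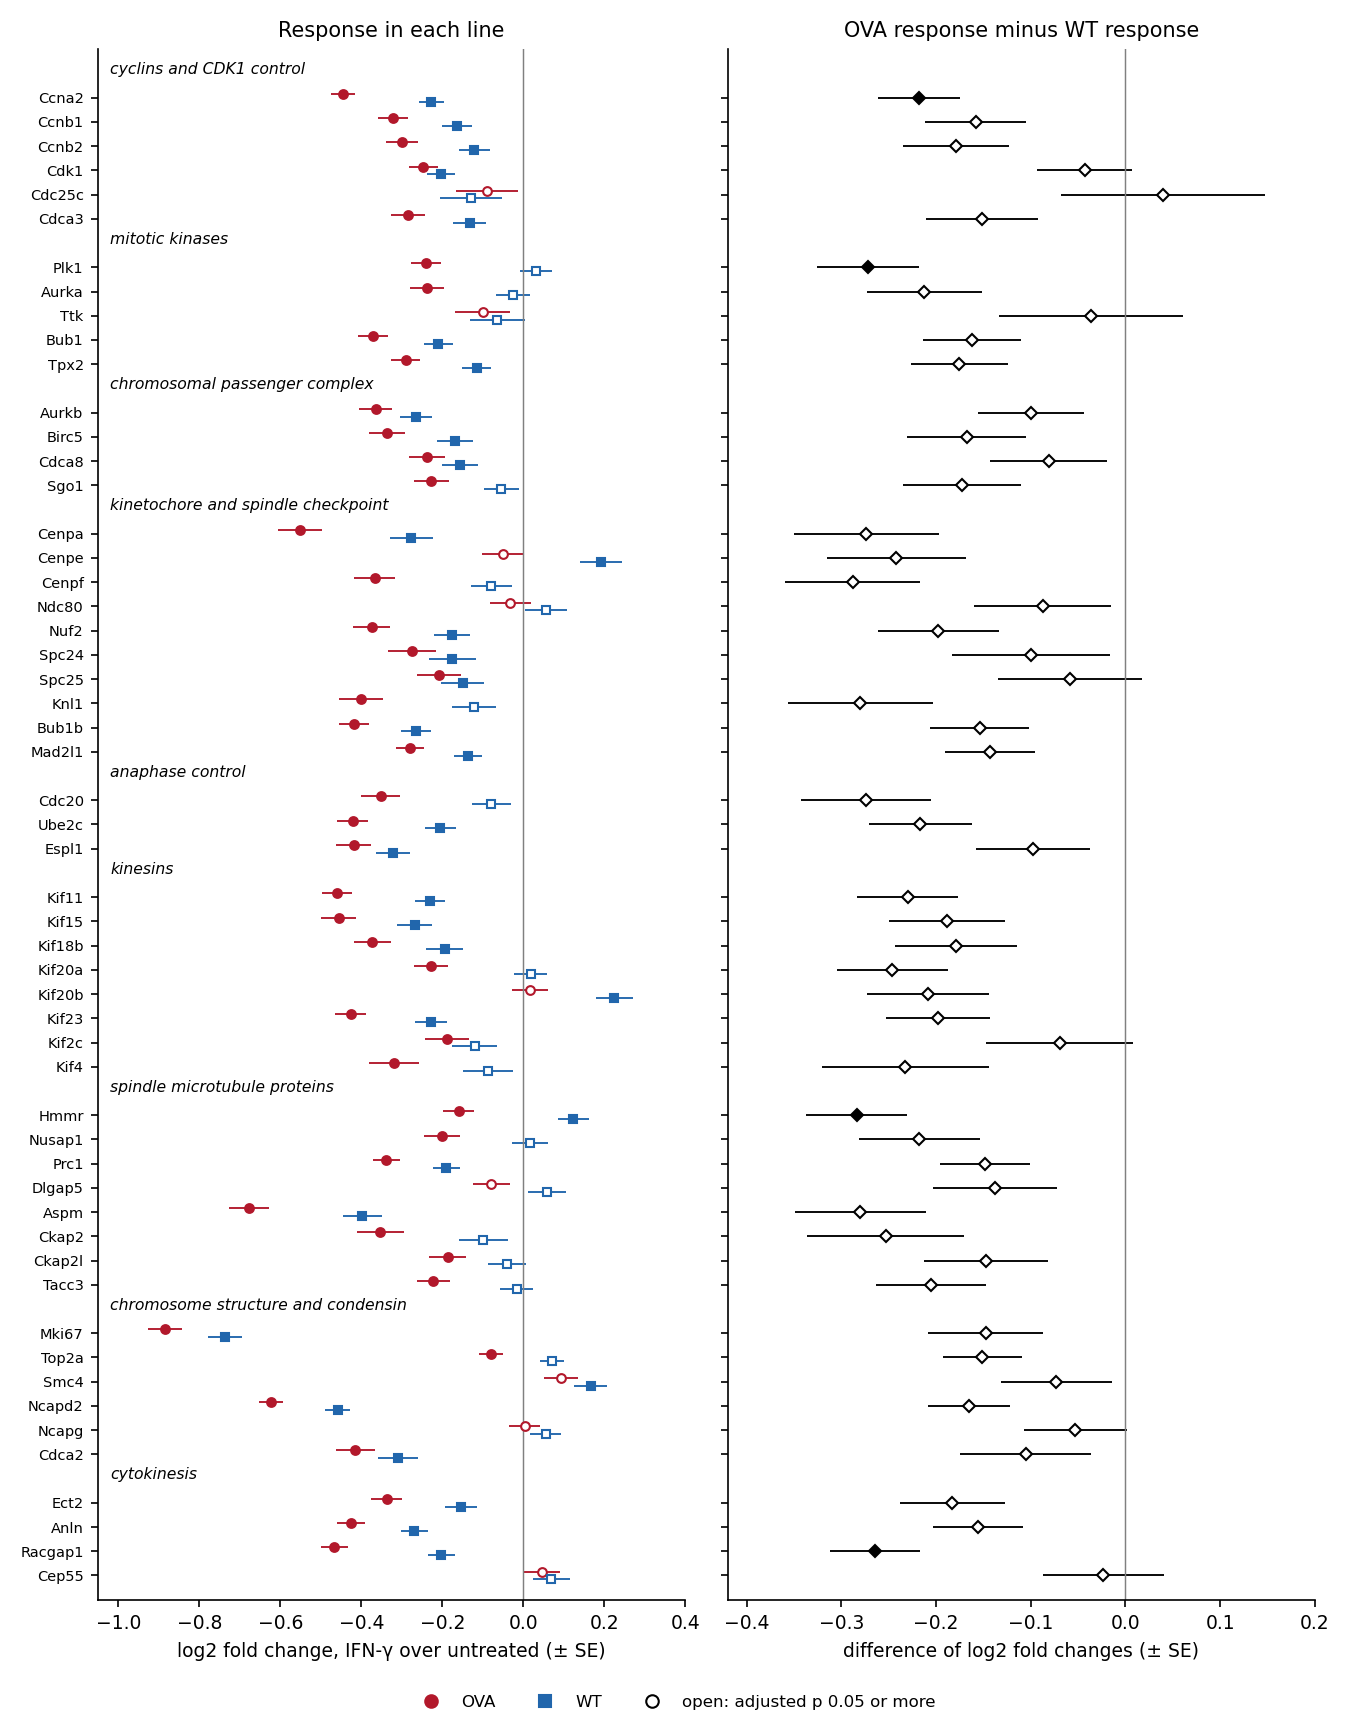
Log2 fold change of IFN-γ over untreated (x axis, left; ± SE) for each of the 54 genes by role, in OVA (circles) and WT (squares), and the OVA response minus the WT response (x axis, right; ± SE); open symbols did not pass an adjusted p of 0.05. The difference lay below 0 for 53 of the 54 genes and passed for Ccna2, Plk1, Hmmr and Racgap1.

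By their calls, 30 genes fell in both lines, 14 fell in OVA and were not called in WT, 6 were called in neither, Hmmr fell in OVA and rose in WT, and Cenpe, Kif20b and Smc4 rose in WT and were not called in OVA. How many of all tested genes had each pair of calls was not counted, so these counts have no share beside them. Taken singly, 22.9% of all tested genes fell in OVA and 19.7% in WT. A call in 1 line and not in the other does not show that the lines differ, so the difference of the responses was tested directly, as the OVA log2 fold change minus that of WT.

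The test of the difference passed for 4 of the 54 genes, all with a lower response in OVA, and for 0 in the other direction, while 0.264% of all tested genes passed as lower and 0.0773% as higher. Their differences were −0.22 (SE 0.0434, adjusted p = 0.0394) for Ccna2, −0.27 (SE 0.0541, adjusted p = 0.0394) for Plk1, −0.28 (SE 0.0529, adjusted p = 0.0247) for Hmmr and −0.26 (SE 0.0476, adjusted p = 0.0200) for Racgap1. At an unadjusted p under 0.05, 39 of the 54 were lower, against 7.15% of all genes, and 0 were higher, against 3.52%. DESeq2 and limma-voom also called 0 higher. The median difference was −0.17 over the 54 and −0.015 over all tested genes, and 53 of the 54 lay below 0, against 54.2% of all genes. All 54 differences share the same 10 libraries, so their common sign is not 54 separate observations.

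The number of calls was not stable. It was 9 with DESeq2, which gave 14 of the 54 no adjusted p, 4 with limma-voom, 1 (Racgap1) with total counts in place of TMM factors, and 9 without WT IFN-γ replicate 3. It was 0 without WT untreated replicate 2, OVA untreated replicate 1, OVA untreated replicate 2 or OVA IFN-γ replicate 2, 1 without the first replicate of WT untreated, of WT IFN-γ or of OVA IFN-γ, and 2 without WT IFN-γ replicate 2. The WT IFN-γ libraries also had the lowest TMM factors, 0.984 to 0.990 against 0.99985 to 1.01 in the other libraries, and with total counts the median difference was −0.14 over the 54 genes and 0.014 over all genes.

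**Figure D4:**
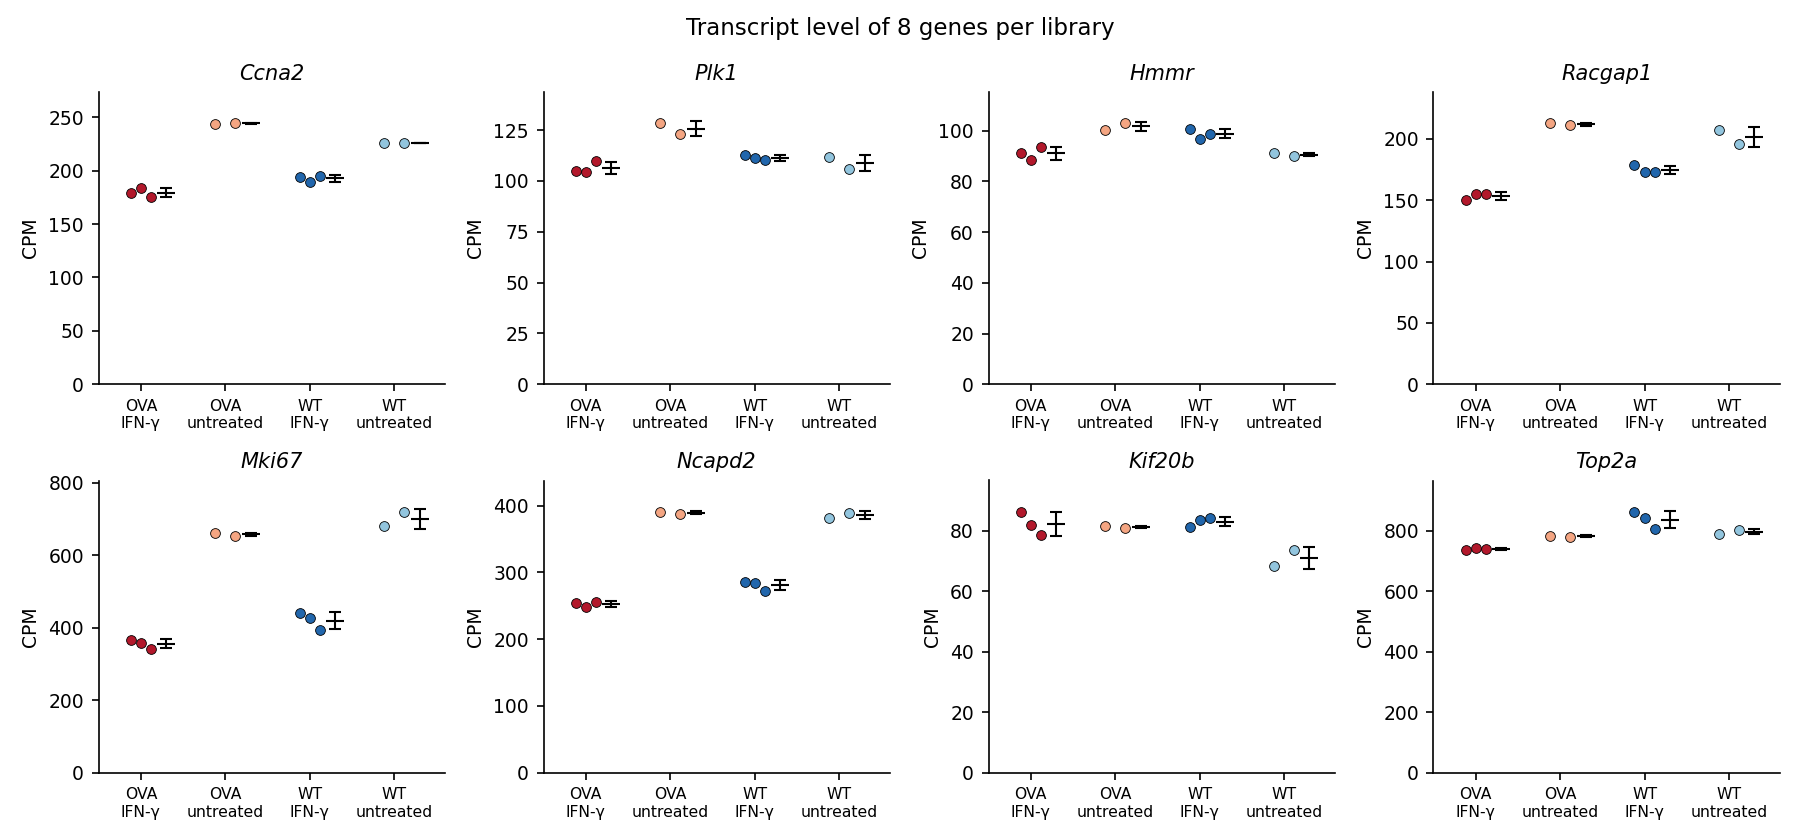
Level per library (y axis, CPM with TMM factors) of 8 genes by group; points are libraries and bars give the mean ± SD. The upper row holds the 4 genes with a difference of responses, and the lower row holds Mki67 and Ncapd2, which fell in both lines, Kif20b, which rose in WT, and Top2a, which was highest in WT IFN-γ libraries at 808 to 863 CPM.

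The lines were then set against each other within each treatment. These comparisons use the same libraries as the responses above and are not independent of them. Under IFN-γ, 21 of the 54 genes were lower in OVA than in WT, 0 were higher and 33 were not called, while 7.99% of all tested genes were lower and 6.36% higher. At an unadjusted p under 0.05, 1 of the 54 was higher in OVA, against 13.7% of all genes, and DESeq2 and limma-voom called 0 higher. The median log2 fold change was −0.098 over the 54 and −0.00090 over all genes. None of the called differences reached 0.3219 log2 units, against 1.80% of all genes that were called and lower by at least that much.

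The largest of these differences were in Aspm, with −0.28 (SE 0.0457, adjusted p = 5.21e-04), Cenpf with −0.27 (SE 0.0457, adjusted p = 6.69e-04), Cenpa with −0.27 (SE 0.0501, adjusted p = 0.00139), Ccnb2 with −0.26 (SE 0.0362, adjusted p = 1.23e-04), Mki67 with −0.24 (SE 0.039, adjusted p = 5.96e-04) and Ube2c with −0.20 (SE 0.0354, adjusted p = 0.00115). Cenpf had 122, 112 and 106 CPM in OVA IFN-γ libraries against 137, 145 and 131 CPM in WT IFN-γ libraries, without overlap. Ccnb2 had 61.0, 59.8 and 59.8 CPM in OVA IFN-γ libraries against 70.1, 72.7 and 73.3 CPM in WT IFN-γ libraries, also without overlap. Racgap1 (−0.19) and Top2a (−0.18) were lower in OVA as well. The summed level of the 54 genes differed by −7.98% in OVA IFN-γ from WT IFN-γ libraries with TMM factors and by −6.46% with total counts.

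Without IFN-γ, OVA exceeded WT in 8 of the 54 genes, 0 were lower and 46 were not called, while 2.98% of all tested genes were higher and 2.55% lower. At an unadjusted p under 0.05, 0 of the 54 were lower, against 8.11% of all genes, and DESeq2 and limma-voom called 0 lower. Ckap2 had 48.0 and 45.1 CPM in OVA untreated libraries against 35.9 and 34.9 CPM in WT untreated libraries, a log2 fold change of 0.39 (SE 0.0634, adjusted p = 0.00112), and was the only 1 of the 8 that was called under every alternative that kept the threshold at 0.05.

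The other 7 were Cdc20 with 0.23 (adjusted p = 0.0155), Kif18b with 0.22 (adjusted p = 0.0122), Ccnb1 with 0.21 (adjusted p = 0.00545), Plk1 with 0.21 (adjusted p = 0.00676), Kif20b with 0.20 (adjusted p = 0.0308), Kif20a with 0.18 (adjusted p = 0.0290) and Hmmr with 0.17 (adjusted p = 0.0235). Of the 8, Hmmr was called lower in OVA under IFN-γ, and the other 7 were not called there. DESeq2 called 4 of the 54 higher. The count was 3 without WT untreated replicate 1, 2 without WT untreated replicate 2, 2 without OVA untreated replicate 1 and 4 without OVA untreated replicate 2. The summed level was 3.12% higher in OVA untreated than in WT untreated libraries.

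**Figure D5:**
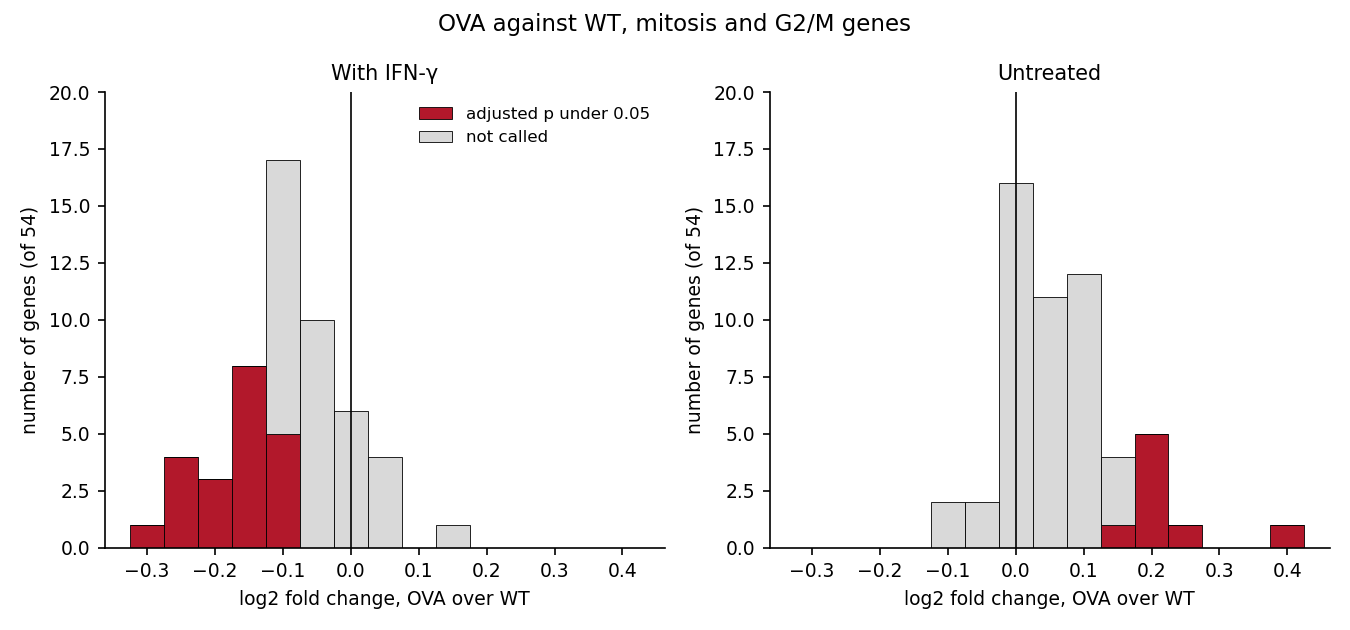
Number of the 54 genes (y axis) by their log2 fold change of OVA over WT (x axis), with IFN-γ on the left and untreated on the right; filled bars hold the genes at an adjusted p under 0.05. With IFN-γ 21 genes were called, all below 0, and untreated 8 were called, all above 0.

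Beyond the 54, 117 other genes of G2 and mitosis were listed by function. Of these, 60 fell and 8 rose in OVA (median −0.16), and 54 fell and 8 rose in WT (median −0.12). The decreases were 51.3% of the list in OVA and 46.2% in WT, against 22.9% and 19.7% of all tested genes. The increases were 6.84% in each line, against 25.9% of all tested genes in OVA and 24.5% in WT. The difference of responses passed for 0 of the 117 with edgeR, DESeq2 or limma-voom, but DESeq2 gave 73 of them no adjusted p. At an unadjusted p under 0.05 edgeR gave 24 lower and 1 higher, against 7.15% and 3.52% of all genes. The median difference over the 117 was −0.044. All 5 further condensin genes fell in both lines, and of 8 further cytokinesis genes 8 fell in OVA and 7 in WT. Of 7 further spindle checkpoint genes 6 fell in each line. Among 29 further centromere and kinetochore genes, 5 fell in OVA (17.2%) and 7 in WT (24.1%), with 1 higher in each. Those shares were below that of all tested genes in OVA and near it in WT. Among 17 genes of the anaphase-promoting complex, 6 fell (35.3%) and 3 rose in OVA, and 5 fell (29.4%) and 2 rose in WT. Of 14 further kinesin and spindle genes 10 fell in OVA and 6 in WT, of 18 entry kinases and phosphatases 11 fell in OVA and 10 in WT, of 13 genes of cohesin and sister separation 6 fell in each line, and of 6 centriole genes 3 fell in OVA and 2 in WT. Cit, citron kinase of the midbody, had 29.3, 27.9 and 28.7 CPM in OVA IFN-γ libraries against 47.2 and 44.7 CPM in OVA untreated libraries, and 38.1, 35.9 and 36.5 CPM in WT IFN-γ libraries against 45.7 and 47.8 CPM in WT untreated libraries, with log2 fold changes of −0.68 (SE 0.052, adjusted p = 9.01e-09) in OVA and −0.34 (SE 0.0499, adjusted p = 2.56e-05) in WT and a difference of −0.34 (SE 0.0721, adjusted p = 0.0600) that did not pass.

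A few genes rose in both lines. Cenpj, a centriole gene, rose by 1.21 (SE 0.068, adjusted p = 1.51e-10) in OVA and 1.16 (SE 0.0688, adjusted p = 3.20e-10) in WT, and Pttg1, securin, the inhibitor of separase, rose by 0.50 (SE 0.078, adjusted p = 5.14e-05) in OVA and 0.46 (SE 0.0798, adjusted p = 1.43e-04) in WT. Of 15 transcription factors of the G2/M programme, 5 fell and 3 rose in each line. Among all tested genes, 22.9% fell and 25.9% rose in OVA, and 19.7% fell and 24.5% rose in WT. The median log2 fold changes of the 15 factors were 0.0010 in OVA and 0.055 in WT. The highest was Lin37, a MuvB subunit, with 0.69 (adjusted p = 7.83e-05) in OVA and 0.54 (adjusted p = 0.00131) in WT, and the NF-Y subunit Nfya was −0.45 (adjusted p = 6.10e-08) in OVA and −0.40 (adjusted p = 2.87e-07) in WT. Foxm1 was −0.25 (adjusted p = 7.39e-06) in OVA and −0.10 (adjusted p = 0.0216) in WT, and Mybl2, which encodes B-Myb, was −0.26 (adjusted p = 4.80e-04) in OVA and −0.37 (adjusted p = 1.79e-05) in WT. Under IFN-γ, Foxm1 was lower in OVA than in WT, with −0.18 (SE 0.0293, adjusted p = 4.91e-04). The difference of responses passed for 0 of the 15 factors, with a median of −0.039.

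Cdkn1a, which encodes the CDK inhibitor p21, had 136, 135 and 137 CPM in OVA IFN-γ libraries against 152 and 148 CPM in OVA untreated libraries, and 71.7, 77.3 and 70.7 CPM in WT IFN-γ libraries against 74.7 and 73.8 CPM in WT untreated libraries. It was higher in OVA than in WT both under IFN-γ, with 0.89 (SE 0.036, adjusted p = 5.62e-11), and untreated, with 1.02 (SE 0.0439, adjusted p = 2.94e-10). IFN-γ lowered it in OVA (−0.14 (adjusted p = 0.00447)) and it was not called in WT (−0.02 (adjusted p = 0.749)). Cdkn1b, which encodes the related inhibitor p27, rose in both lines, with 0.36 (adjusted p = 5.60e-07) in OVA and 0.37 (adjusted p = 4.29e-07) in WT. Of all tested genes, 25.9% rose and 22.9% fell in OVA, and 24.5% rose and 19.7% fell in WT. Of 12 listed CDK inhibitors and arrest genes, 9 were tested, and of these 5 rose (55.6%) and 1 fell (11.1%) in each line. The highest were the stress genes Gadd45b, with 2.04 (adjusted p = 2.50e-09) in OVA and 1.94 (adjusted p = 1.94e-09) in WT, and Gadd45g, with 1.77 (adjusted p = 1.16e-06) in OVA and 1.94 (adjusted p = 5.01e-07) in WT. The part of these genes in the levels of the 54 genes was not tested.

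Most G1/S and DNA replication genes fell in both lines. Of 38, 29 fell (76.3%) and 1 rose in OVA (median −0.26), and 32 fell (84.2%) and 1 rose in WT (median −0.32). Of all tested genes, 22.9% fell in OVA and 19.7% in WT. The difference of responses had a median of 0.036 over the 38. This difference passed for 0 of the 38 with edgeR, DESeq2 or limma-voom, but DESeq2 gave 16 of them no adjusted p. At an unadjusted p under 0.05 edgeR gave 3 higher and 0 lower, against 3.52% and 7.15% of all genes. Under IFN-γ, 10 of the 38 (26.3%) were higher in OVA than in WT, against 6.36% of all tested genes, and 0 were lower. DESeq2 called 7 higher and limma-voom 10, and at an unadjusted p under 0.05 edgeR gave 13 higher, each with 0 lower. E2f1, an activator of the G1/S programme, was −0.36 (adjusted p = 1.04e-06) in OVA and −0.55 (adjusted p = 4.28e-09) in WT. Their summed level differed by −19.8% in OVA IFN-γ from OVA untreated libraries and by −21.6% in WT IFN-γ from WT untreated libraries.

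Set over that sum, the 54 genes held a ratio of 1.27 ± 0.0104 in OVA IFN-γ libraries (SD, n = 3) against 1.28 in both OVA untreated libraries. The ratio was 1.43 ± 0.0266 in WT IFN-γ libraries (SD, n = 3) against 1.26 ± 0.0182 in WT untreated libraries (SD, n = 2). The 3 WT IFN-γ libraries, at 1.40 to 1.45, stood above the other 7 libraries, at 1.24 to 1.28. A ratio within a library does not depend on its scaling factor. It gives unequal change of the sums and does not by itself say which of them moved. Both sums fell in each line. In WT the 54 genes changed by −10.8% and the G1/S genes by −21.6%, and in OVA by −20.4% and −19.8%.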

How the data were processed

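The authors deposited a table of raw read counts per Ensembl gene for 10 libraries of poly-A selected RNA. Per the submitters' processing notes, the tools were featureCounts 1.6.0 and HISAT2 2.0.5, on the GRCm39 build. Not given in the sources used here are the release of the annotation, whether strand was used, and how reads with several matches were treated. The samples were taken as cell lines, as their cell line label says, although the extraction text mentions tissue. No 2 replicates agreed within sampling noise (chi-square per degree of freedom 2.09 to 3.75).

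From these counts, edgeR 4.0.16 (R 4.3.3) was used for the tests (filterByExpr, TMM factors, quasi-likelihood F test, two-sided). The 10 libraries were fitted with 4 group means. P-values were adjusted by Benjamini-Hochberg over all 15526 tested genes, with 0.05 as the threshold for a call. The 5 contrasts were the IFN-γ response of OVA, that of WT, the first minus the second, and OVA against WT under IFN-γ and untreated. Levels are CPM with TMM factors, and errors are SD unless given as SE. Exon lengths are unions of GENCODE M21 exons. Promoter sequences are RefSeq's (GRCm38.p6), a build other than that of the counts, so they were joined by gene symbol only.

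The 54 genes, the comparison lists and the tests were chosen with earlier results of these data known. Named genes were those with a called difference of responses, the 6 largest decreases and 3 largest increases per comparison, those whose calls differed between lines or were absent in both, the 3 most abundant per role, up to 3 called genes per further list, fixed regulators and cell type markers. The text gives part of these. Alternatives were DESeq2 1.42.0, limma-voom (limma 3.58.1), other scaling factors and filters, a replicate block, other thresholds, only the groups compared and each library left out in turn. The pipeline was tested on simulated data first. Total counts per library ran from 17728722 to 19642533, which gives a counting error of 0.792% to 5.28% of the level for a member in a library. The median was 2.52%, against a median spread between libraries of 2.59%, and counting error was at least as large as the spread in 107 of 216 pairs of gene and group.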

Additional observations from a re-analysis of the deposited data

Results flagged for a closer look

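The response to IFN-γ differed between OVA and WT for 4 of the 54 genes by the test of the difference itself (edgeR, adjusted over 15526 genes). On the log2 scale, OVA minus WT, the difference was −0.22 for Ccna2, with a response of −0.45 in OVA and −0.23 in WT. For Plk1 it was −0.27, with −0.24 in OVA and 0.03 in WT, and for Hmmr it was −0.28, with −0.16 in OVA and 0.12 in WT. For Racgap1 it was −0.26, with −0.47 in OVA and −0.20 in WT. The adjusted p was 0.0394 for Ccna2, 0.0394 for Plk1, 0.0247 for Hmmr and 0.0200 for Racgap1. None of the 4 was called under every one of 18 alternatives: the call was lost in 12 for Ccna2, 9 for Plk1, 8 for Hmmr and 5 for Racgap1. The adjusted p over those alternatives ran from 0.00908 to 0.218 for Ccna2, from 0.00175 to 0.293 for Plk1, from 0.00174 to 0.169 for Hmmr and from 4.29e-04 to 0.174 for Racgap1, and the difference stayed below 0 in each.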

How the results depend on the processing

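No called value of the 54 genes changed direction under the alternatives that were run. Values that were not called did, in 11 of 20 genes in WT (7 of them, Plk1 among them, with upper quartile factors), 3 of 9 in OVA, 4 of 50 for the difference, 16 of 46 between untreated and 8 of 33 between treated lines. Over all genes, the median difference was −0.015 with TMM factors and 0.014 with total counts. Calls were kept under every alternative at the 0.05 threshold for 43 of 45 genes in OVA, 22 of 34 in WT, 0 of 4 for the difference of responses, 12 of 21 between the treated lines and 1 of 8 between the untreated lines. Genes higher in WT numbered 1 with upper quartile factors. With no count filter 1 gene was higher in OVA and 12 had a lower response in OVA than in WT. That last count was 9 with DESeq2 and 1 with total counts, and with total counts 1 gene was higher in OVA than in WT under IFN-γ. Between untreated lines DESeq2 called 4 higher. At an adjusted p under 0.01 the counts were 0 for the difference of responses, 3 higher between untreated lines and 13 lower between treated lines. With at least 0.3219 log2 units required, 25 fell in OVA, and 3 fell and 0 rose in WT. At that bar 0 passed for the difference, 1 was higher between untreated lines and 0 were lower between treated lines. The summed level with total counts changed by −12.7% in WT and differed by −6.46% between treated lines. With TMM factors and without Mki67 and Top2a, the summed level changed by −19.5% in OVA and −9.38% in WT. It then differed by −6.77% between treated lines and by 5.0% between untreated lines. The cause of these shifts was not tested, other than that a higher bar passes fewer genes.

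With each library left out in turn, the number with a lower response in OVA ran from 0 to 9, the number higher in OVA untreated than in WT untreated from 2 to 9, and the number higher under IFN-γ from 0 to 1 in OVA and from 0 to 1 in OVA against WT. The counts of decreases ran from 43 to 45 in OVA, from 24 to 32 in WT and from 15 to 22 between treated lines. Same-numbered replicates of different groups did not deviate together (correlations −0.0721 to 0.0349 across 15526 genes). With 2 or 3 libraries a group, this cannot settle whether the numbers pair the samples, and the labels do not say. With the replicate number as a block, 8 genes had a lower response in OVA, 44 fell in OVA, 31 fell and 5 rose in WT, 24 were lower in OVA under IFN-γ and 9 were higher in OVA untreated. With 2 or 3 libraries a group, small differences can be missed.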
